A study of Mus musculus with 6 samples.

Results

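The mitochondrial sheath is the helix of mitochondria that wraps the midpiece of a mouse sperm tail. It is laid down late, when spherical mitochondria line up along the outer dense fibres of the elongating flagellum, attach to one another and coil, while a keratin-like capsule rich in cysteine and selenium is cross-linked around them. Many of its messages are already present in round spermatids and are stored there before they are translated. The 10 genes described here were chosen as the rows of the count table named Spata19, Smcp, Gk2, Gykl1, Armc12, Tbc1d21, Gpx4, Vdac2, Vdac3 and Cby2, out of 22770 gene rows, with earlier results of these data known. All 10 passed the filter on low counts, as did 19776 genes in all.

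Polyadenylated RNA was measured by Smart-seq2 in 3 libraries of mouse round spermatids of the genotype labelled Eif5a SKO, whose columns in the deposited table are headed cKO, and in 3 wild-type (WT) libraries, all sorted from testis at postnatal day 28, when step 8 spermatids prevailed. The sources used here give no promoter that drove the deletion, no strain and no number of animals behind a library, so p-values measure the spread between these samples, which may be technical. The product of Eif5a is a factor that binds ribosomes stalled in elongation; transcription and nuclear organisation after its loss are the subject of the series. The cDNA of Smart-seq2 is amplified by PCR and carries no molecular identifiers, so that a molecule can be read more than once.

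Library totals lay between 52055193 and 60970931 counts. Eif5a itself had 5.35 to 6.88 CPM (counts relative to the library total, scaled by edgeR's TMM factors) in SKO libraries and 616.4 to 700.9 CPM in WT libraries, so each library matched its label. All 12 round spermatid markers were detected, with 7 called higher, 0 lower and summed levels of 7491 to 8276 CPM in SKO and 5220 to 5735 CPM in WT. Over all genes tested, 21.2% were called higher and 20.9% lower, which stand beside the marker counts given here. The second principal component, with 14.4% of the variance, set SKO replicate 3 (-83.2) apart from SKO replicates 1 and 2 (46.0 and 45.4). Markers of Sertoli cells, the somatic support cells of the tubule, summed to 70.6 to 233.5 CPM in SKO and 4.28 to 14.0 CPM in WT, with 9 of the 10 markers tested (of 17 listed) called higher. Leydig cell markers (7 of 10 in the table, 3 of them called higher and 0 lower) summed to 9.57 to 46.0 CPM in SKO and 3.15 to 23.2 CPM in WT, and none of either list was at 0 in all libraries. Peritubular myoid markers (5 of 7 tested) had a median log2 fold change of 1.36, with Acta2 (1.87) and Mylk (1.36) called higher and Actg2 (-1.30) lower. Their sum, 114.4 to 131 CPM in SKO and 217.2 to 239.7 CPM in WT, was mostly Actg2, which averaged 89.6 CPM in SKO and 221.1 CPM in WT. Spermatocyte markers (13 of 13 tested) went both ways, with Sycp3 (1.82) and Dmc1 (1.56) called higher and Aurkc (-2.25), Ovol1 (-1.16), Spo11 (-0.72) and Hormad2 (-0.60) lower, and summed to 735.8 to 925.7 CPM in SKO and 918.2 to 937.4 CPM in WT. Macrophage markers summed to 2.60 to 7.98 CPM in SKO and 4.26 to 5.35 CPM in WT. Of 8 listed 5 were tested, with Lyz2 (2.06) called higher and Adgre1 (-2.77) lower. Spermatogonial markers (7 of 9 tested) summed to 28.0 to 29.4 CPM in SKO and 30.9 to 34.98 CPM in WT, with 0 called higher and 2 lower (Kit and Dmrt1). Endothelial markers (2 of 6 tested) summed to 1.86 to 3.45 CPM in SKO and 5.55 to 6.68 CPM in WT, with 1 called lower (Kdr). The part of these cells in the results was not tested. In such bulk samples fewer cells of a type and less RNA per cell cannot be told apart.

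Transcripts of 5 of the 10 sheath genes differed between SKO and WT spermatids (edgeR quasi-likelihood test, Benjamini-Hochberg adjusted p under 0.05, n = 3 each). Spata19, Smcp, Gpx4 and Vdac3 rose in SKO, Cby2 fell, and Gk2, Gykl1, Armc12, Tbc1d21 and Vdac2 did not pass. Across all genes tested, 42.0% were called, 21.2% higher and 20.9% lower, so the 5 calls among 10 members are near the background. These were 4185 genes higher and 4127 lower, and with library totals in place of TMM factors, which moved the median of all genes by over 0.1 to -0.23, 2831 higher and 5666 lower, with 2 members higher. In CPM with TMM factors, the groups did not overlap for 6 of the 10 members, 5 with SKO above WT and 1 below. The same held for 55.6% of all genes tested, 27.3% above and 28.3% below. Overlap was not counted under library totals. The members' median log2 fold change was 0.24, against 0.01 over all genes tested. Without 1 library at a time, 3 members were higher without SKO replicate 1 or 2, 6 without SKO replicate 3, 2 without WT replicate 1 or 3 and 1 without WT replicate 2. Together the 10 genes summed to 12520 to 15050 CPM in SKO libraries and 10690 to 11360 CPM in WT libraries. TMM factors were 0.884 to 0.970 in SKO libraries and 1.077 to 1.099 in WT libraries. Of the unscaled counts, the 10 genes held 1.261%, 1.33% and 1.214% in SKO replicates 1 to 3. In WT replicates 1 to 3 they held 1.205%, 1.175% and 1.223%, so these shares overlapped.

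**Figure D1:**
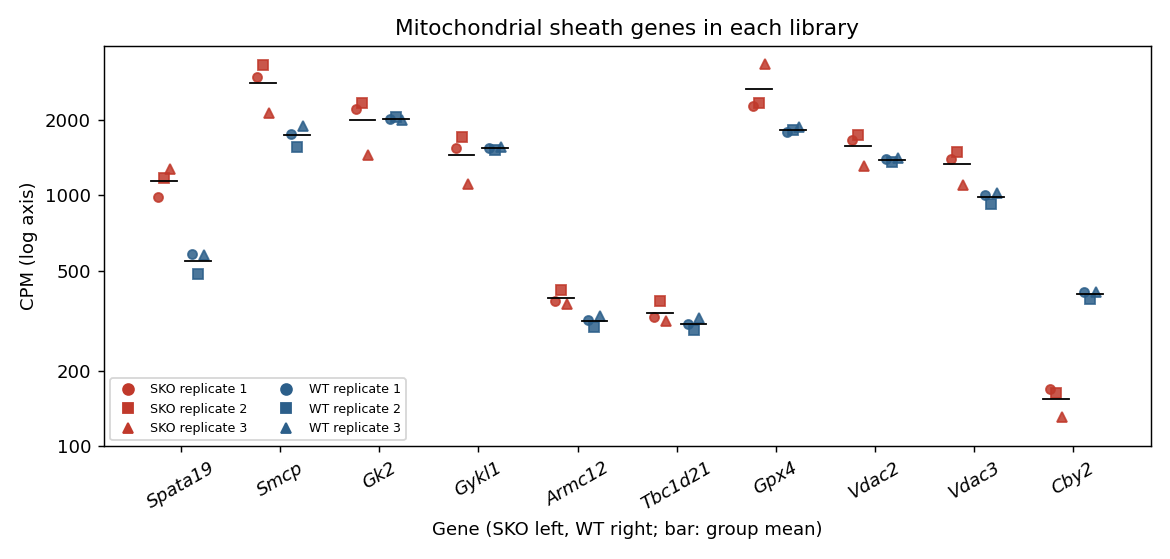
Level of each sheath gene in each library, in CPM on a log axis, with SKO libraries left of WT libraries and a bar at each group mean. Spata19 lies wholly above and Cby2 wholly below its WT libraries, while SKO replicate 3 is the highest SKO library for Spata19 and Gpx4 and the lowest for the other 8 genes.

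The regions just before the start sites of Spata19 and Cby2 are shown first, because these genes had the largest differences in opposite directions. Spata19 encodes a mitochondrial protein of the midpiece whose loss in the mouse disorganises the sheath, and Cby2, also called Spert or Nurit, encodes a spermatid protein of the Chibby family. The sequences are from RefSeq (GRCm38.p6), run 5′ to 3′ on the strand of the gene, end at the base before the RefSeq start, and carry each CCAAT motif, on either strand, in capitals. Spata19 is on the plus strand (chr9:27396557-27396806) and Cby2 on the minus strand (chr14:75593117-75593366). Each gene has another RefSeq start, at 27397212 for Spata19 and 75591985 for Cby2, whose window is not printed. CCAAT is in that other window of Spata19 but not in that of Cby2.
Spata19: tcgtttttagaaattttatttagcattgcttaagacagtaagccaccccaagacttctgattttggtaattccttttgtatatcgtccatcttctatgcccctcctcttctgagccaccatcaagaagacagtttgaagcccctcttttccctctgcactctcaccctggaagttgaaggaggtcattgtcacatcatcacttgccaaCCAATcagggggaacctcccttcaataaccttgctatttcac
Cby2: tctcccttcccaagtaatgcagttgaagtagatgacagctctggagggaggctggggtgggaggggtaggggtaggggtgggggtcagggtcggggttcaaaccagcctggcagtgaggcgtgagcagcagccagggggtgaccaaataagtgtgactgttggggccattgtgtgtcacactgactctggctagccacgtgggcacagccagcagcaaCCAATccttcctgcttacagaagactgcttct
RefSeq gave 11 such windows of 250 bases for 6 of the members (Smcp, Gk2, Spata19, Tbc1d21, Gpx4 and Cby2), 1 for each start, of which 2 of Gpx4 overlap. The cAMP response element TGACGTCA, which activators of the CREM family bind in spermatids, was in 0 of the 11 windows and in 1.55% of 32851 promoter windows of all genes. Its first part, TGACG on either strand, was in 3 windows, all of Gpx4, and in 17.8% of all windows. CCAAT was in 6 of the 11 and in 33.85% of all, and TATAAA was in 0 and in 12.4%. The 2 overlapping Gpx4 windows hold the same TGACG site and share CCAAT sites, so these sites are counted in both.

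Spata19 lies on chromosome 9 (27396800 to 27401785, plus strand, GRCm38) and its 697-base transcript is the shortest among the members. It had 983.1, 1171 and 1277 CPM in the SKO libraries, against 585.2, 483.8 and 578.1 CPM in the WT libraries. Every SKO library was above every WT library, with means of 1144 ± 149 and 549.0 ± 56.6 CPM (SD). The level was 2.08-fold that of WT, or 1.06 ± 0.14 on the log2 scale (SE; edgeR adjusted p = 0.000415). A per-library correction for transcript length and GC content brought it to 0.55 (edgeR adjusted p = 0.0019), still past the threshold.

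Cby2 was the only member that fell. It stood at 169.3, 163.4 and 130.5 CPM in the SKO libraries, against 410.7, 387.8 and 413.1 CPM in the WT libraries. The groups were far apart, with means of 154.4 ± 20.9 and 403.9 ± 14.0 CPM. The log2 fold change of -1.39 ± 0.14 (edgeR adjusted p = 8.61e-05) is at percentile 10.1 of all genes tested, and it lay between -1.63 and -1.23 under every alternative that kept all libraries. Within each library, Spata19 counts exceeded Cby2 counts by 2.54, 2.84 and 3.29 on the log2 scale in SKO replicates 1 to 3, and by 0.51, 0.32 and 0.48 in WT replicates 1 to 3. This ratio does not depend on a scaling factor per library. The length and GC correction does change it, with log2 fold changes of 0.55 for Spata19 and -1.23 for Cby2. The group means of the ratio of counts differed by 2.45. The exact two-sided permutation p was 0.1, the smallest that 20 labelings allow (adjusted over 5 pairs, 0.167). As the groups of both genes were already apart in opposite directions, this p was fixed beforehand and adds no support.

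The capsule genes were the most abundant members per length of transcript. Smcp encodes the sperm mitochondria-associated cysteine-rich protein, a capsule component whose mRNA is a textbook case of storage in round spermatids. It lies on chromosome 3 (92583867 to 92588997, minus strand). Smcp had 2952, 3313 and 2124 CPM in the SKO libraries, against 1761, 1562 and 1888 CPM in the WT libraries. The groups did not overlap, but SKO replicate 3 was close to the highest WT library. The log2 fold change was 0.69 ± 0.17 (edgeR adjusted p = 0.00991). It was 0.44 under library totals alone, still past the threshold. The call ended with the length and GC correction (0.32, edgeR adjusted p = 0.129) and, narrowly, without WT replicate 2 (0.61, edgeR adjusted p = 0.0506).

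Gpx4 encodes a glutathione peroxidase that carries selenocysteine and that, in late spermatids, becomes a cross-linked structural protein of the capsule. It lies on chromosome 10 (80047166 to 80056439, plus strand) and starts at several sites that give mitochondrial, cytosolic and nuclear forms, which gene counts do not separate. Gpx4 had 2259, 2332 and 3346 CPM in the SKO libraries, against 1779, 1821 and 1872 CPM in the WT libraries. All SKO libraries were above all WT libraries, and SKO replicate 3 was the highest, the reverse of its place for Smcp. The log2 fold change was 0.54 ± 0.16 (edgeR adjusted p = 0.0237), and 0.48 with the length and GC correction (edgeR adjusted p = 0.00647). Without SKO replicate 3 it was 0.30 (edgeR adjusted p = 0.00424). The call ended under library totals alone (0.31, edgeR adjusted p = 0.187) and without WT replicate 1, 2 or 3 (edgeR adjusted p = 0.0866, 0.0741 and 0.0658). The Smcp to Gpx4 ratio of counts was 0.39, 0.51 and -0.66 on the log2 scale in SKO replicates 1 to 3, and -0.02, -0.22 and 0.01 in WT replicates 1 to 3. Its groups overlapped (difference of means 0.15, exact two-sided permutation p = 0.8).

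A pseudogene in the table, Gpx4-ps2, matches 73.7% of the Gpx4 transcript at 99.7% identity. It had 307.3 to 450.9 CPM in SKO libraries and 235.9 to 249.8 CPM in WT libraries, a log2 fold change of 0.57 ± 0.16 beside the 0.54 of Gpx4. The sources used here do not say how reads that match both were assigned, so the pair was also counted together, which left the call in place (edgeR adjusted p = 0.0228).

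Vdac3 and Vdac2 encode voltage-dependent anion channels, the pores of the outer mitochondrial membrane. Both proteins bind ARMC12 in mouse sperm, and Vdac3 loss makes male mice infertile. Vdac3, on chromosome 8 (22577075 to 22593813, minus strand), had 1389, 1493 and 1099 CPM in the SKO libraries, against 1004, 924.8 and 1017 CPM in the WT libraries. The groups did not overlap, and the log2 fold change was 0.43 ± 0.14 (edgeR adjusted p = 0.0318). This call was the least stable of the 5. It ended without SKO replicate 1 or 2 (edgeR adjusted p = 0.0819 and 0.125) and without WT replicate 1, 2 or 3 (edgeR adjusted p = 0.0958, 0.112 and 0.0823). The length and GC correction (0.18, edgeR adjusted p = 0.179) and library totals alone (0.19, edgeR adjusted p = 0.231) ended it as well.

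Vdac2, on chromosome 14 (21825238 to 21845879, plus strand), had 1664, 1736 and 1304 CPM in the SKO libraries, against 1400, 1361 and 1402 CPM in the WT libraries. SKO replicate 3 was below all WT libraries and the other SKO libraries above them. The log2 fold change of 0.18 ± 0.14 did not pass (edgeR adjusted p = 0.326), turned to -0.07 under library totals alone, and passed without SKO replicate 3 (0.26, edgeR adjusted p = 0.00883). SKO replicate 3 did not stand apart in the ratio within libraries. The log2 ratio of Vdac2 over Vdac3 counts was 0.26, 0.22 and 0.25 in SKO replicates 1 to 3, and 0.48, 0.56 and 0.46 in WT replicates 1 to 3. The ratio was lower in every SKO library than in any WT library, by 0.26 in the means (exact two-sided permutation p = 0.1, the smallest possible; adjusted over 5 pairs, 0.167). With the length and GC correction the log2 fold changes were 0.24 for Vdac2 and 0.18 for Vdac3, which turns their order round.

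Per kilobase of transcript, Vdac3 made up 53.4% to 54.1% of the summed level of the 3 Vdac genes in SKO libraries and 48.3% to 49.9% in WT libraries. These shares restate the ratio of Vdac2 over Vdac3 and carry no length and GC correction. Vdac1, the main channel of many somatic tissues, stood at 1.51 ± 0.39 CPM per kb in SKO and 0.83 ± 0.13 CPM per kb in WT, at most 0.119% of the sum. Copies of Vdac3 were also counted. Vdac3-ps1, which matches 60.2% of the transcript at 99.2% identity, had 142.1 to 195.8 CPM in SKO and 119.6 to 135.4 CPM in WT. Gm7591, at 96.7% identity, had 19.98 to 30.2 CPM in SKO and 16.6 to 21.6 CPM in WT. With both added to Vdac3 the edgeR adjusted p was 0.0329. The Vdac2 copy in the table, Gm7832, was under 1 CPM in all 6 libraries.

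**Figure D2:**
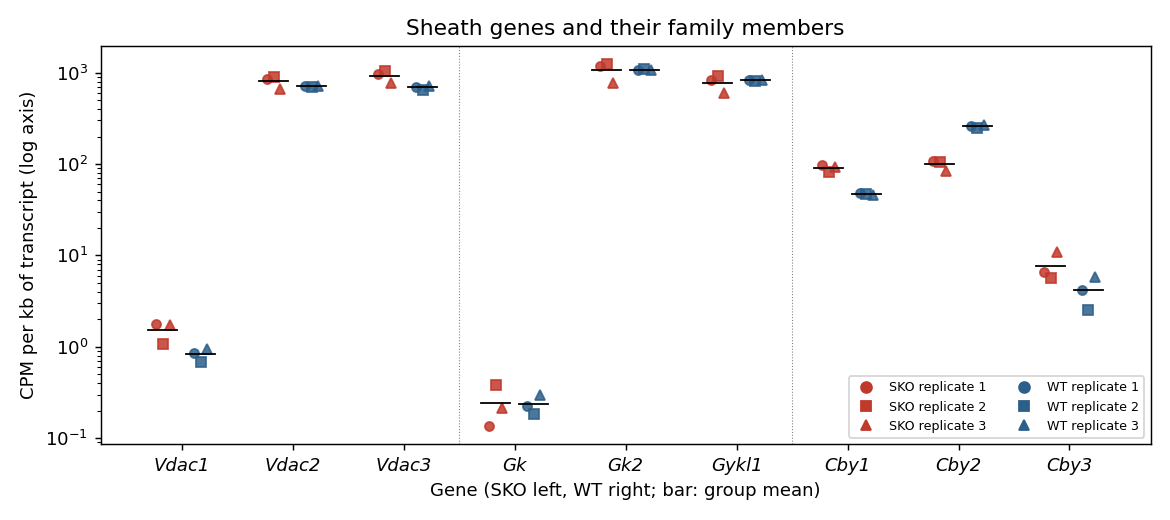
Level of Vdac, glycerol kinase and Chibby family genes in each library, in CPM per kb of transcript on a log axis, with SKO libraries left of WT libraries and a bar at each group mean. Vdac1 and Gk stay under 2 CPM per kb, and Cby1 and Cby2 lie close together in SKO (means 90.8 and 99.0 CPM per kb) and apart in WT (47.2 and 258.9 CPM per kb).

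Cby2 has family members whose products act at the ciliary base and the sperm annulus. Cby1, the gene of the Chibby protein that antagonises beta-catenin and serves ciliogenesis, rose to 104.2 ± 9.2 CPM in SKO, against 54.2 ± 0.9 CPM in WT (log2 difference 0.94 ± 0.13, edgeR adjusted p = 0.000476). Cby3, a gene of a sperm annulus protein, had 4.81, 4.12 and 7.92 CPM in SKO and 3.08, 1.84 and 4.28 CPM in WT, and its 0.87 ± 0.35 did not pass (edgeR adjusted p = 0.0698). It passed with DESeq2 (adjusted p = 0.0439) and without WT replicate 3 (1.19, edgeR adjusted p = 0.0369). Per kilobase, Cby2 held 44.5% to 54.5% of the family's summed level in SKO libraries and 83.2% to 83.5% in WT libraries, without overlap. Cby1 held 42.6% to 49.8% in SKO libraries and 14.6% to 15.9% in WT libraries.

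Gk2 and Gykl1 are intronless glycerol kinase genes of haploid germ cells, and loss of either in mice leaves sheath mitochondria disordered. Gk2, on chromosome 5 (97455142 to 97457021, minus strand), had 2210, 2341 and 1441 CPM in the SKO libraries, against 2006, 2046 and 1989 CPM in the WT libraries. Gykl1, on chromosome 18 (52693690 to 52695550, plus strand), had 1548, 1702 and 1110 CPM in the SKO libraries, against 1540, 1517 and 1551 CPM in the WT libraries. In both genes the WT libraries were within a narrow band, and SKO replicate 3 was below it while SKO replicates 1 and 2 were above it or at its upper edge. Relative to the WT mean, SKO replicate 3 was at -0.48 for Gk2 and -0.47 for Gykl1 on the log2 scale. The log2 fold changes were -0.01 ± 0.18 and -0.08 ± 0.16 (edgeR adjusted p = 0.964 and 0.719). Without SKO replicate 3 they turned to 0.14 and 0.05, and neither passed (edgeR adjusted p = 0.107 and 0.607). Gk2 over Gykl1 stood at 0.51, 0.46 and 0.38 in SKO replicates 1 to 3, and at 0.38, 0.43 and 0.36 in WT replicates 1 to 3. The difference of 0.06 was within the spread of the libraries (exact two-sided permutation p = 0.3). The transcripts of the pair match at 78.1% identity. Gk, the X-linked gene of the somatic enzyme, was at 0.24 ± 0.13 CPM per kb in SKO and 0.24 ± 0.06 CPM per kb in WT, whereas Gk2 was at 1062 CPM per kb in SKO and 1071 CPM per kb in WT.

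Armc12 and Tbc1d21 encode proteins that bind each other and that mouse sperm need to build the sheath, ARMC12 as an adherence factor between mitochondria and TBC1D21 as a protein with a Rab GTPase-activating domain. Armc12, on chromosome 17 (28530806 to 28539110, plus strand), had 378.3, 419.1 and 368.3 CPM in the SKO libraries, against 319.1, 299.3 and 330.8 CPM in the WT libraries. The groups did not overlap, but the log2 fold change of 0.30 ± 0.12 did not pass (edgeR adjusted p = 0.0713). It passed with upper quartile factors (edgeR adjusted p = 0.0483), when genes had to reach 5 CPM in 3 libraries (0.0367) and without SKO replicate 3 (0.0168). Under library totals alone the Armc12 value was 0.06 (edgeR adjusted p = 0.710). Tbc1d21, on chromosome 9 (58359704 to 58370455, minus strand), had 328.2, 379.8 and 314.9 CPM in the SKO libraries, against 307.1, 292.0 and 323.2 CPM in the WT libraries. Its groups overlapped, at 0.15 ± 0.13 (edgeR adjusted p = 0.369), and the sign turned under library totals alone (-0.09). The ratio of Armc12 over Tbc1d21 counts was 0.21, 0.14 and 0.23 on the log2 scale in SKO replicates 1 to 3, and 0.06, 0.04 and 0.03 in WT replicates 1 to 3. These groups did not overlap, with a difference of 0.15 (exact two-sided permutation p = 0.1, the smallest possible; adjusted over 5 pairs, 0.167).

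**Figure D3:**
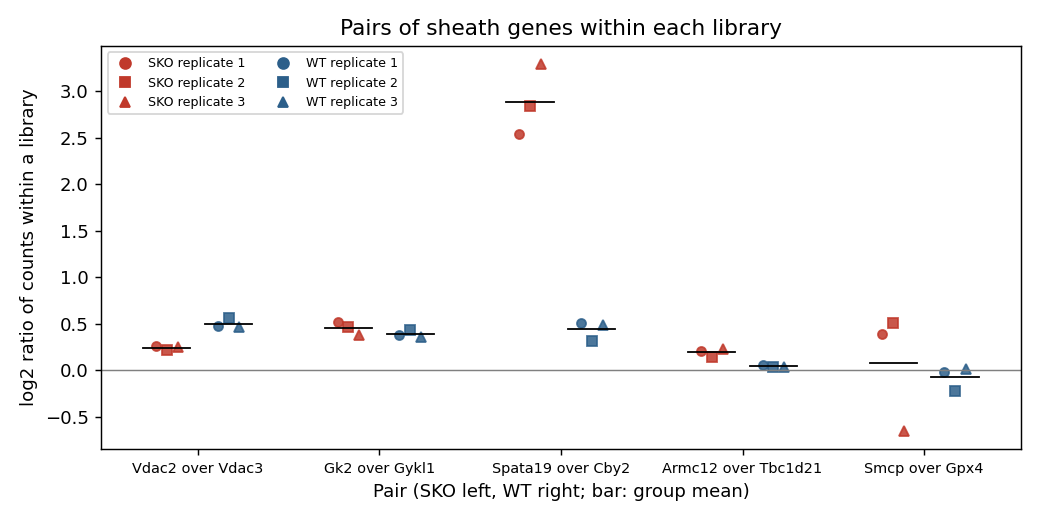
Log2 ratio of counts for 5 pairs of sheath genes within each library, SKO libraries left of WT libraries, with a bar at each group mean. The groups are apart for Spata19 over Cby2 (means 2.89 and 0.44), Vdac2 over Vdac3 (0.24 and 0.50) and Armc12 over Tbc1d21 (0.19 and 0.04), and overlap for the other pairs.

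The order of the levels per kilobase of transcript differed in a few places between the groups. In SKO it ran from Smcp (3248 ± 708 CPM per kb) through Gpx4 (2659 ± 611), Spata19 (1641 ± 213), Gk2, Vdac3, Vdac2 and Gykl1 to Armc12 (333.3 ± 23.1), Tbc1d21 (265.7 ± 26.7) and Cby2 (99.0 ± 13.4). In WT it ran from Smcp (2017 ± 191) and Gpx4 (1833 ± 46) through Gk2, Gykl1, Spata19 (787.7 ± 81.2), Vdac2 and Vdac3 to Armc12 (271.3 ± 13.6), Cby2 (258.9 ± 8.9) and Tbc1d21 (239.6 ± 12.1). The values are CPM per kb, mean ± SD, n = 3. Smcp and Gpx4 overlapped in both groups, as did, in SKO, each pair of neighbours from Gk2 to Gykl1. In WT the neighbours from Gykl1 to Vdac3 overlapped, as did those from Armc12 to Tbc1d21. Spata19 took place 3 in SKO and place 5 in WT, and Cby2 place 10 in SKO and place 9 in WT. In WT the members lay at percentiles 97.4 to 99.97 of the level per kilobase over the genes with a known length.

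**Figure D4:**
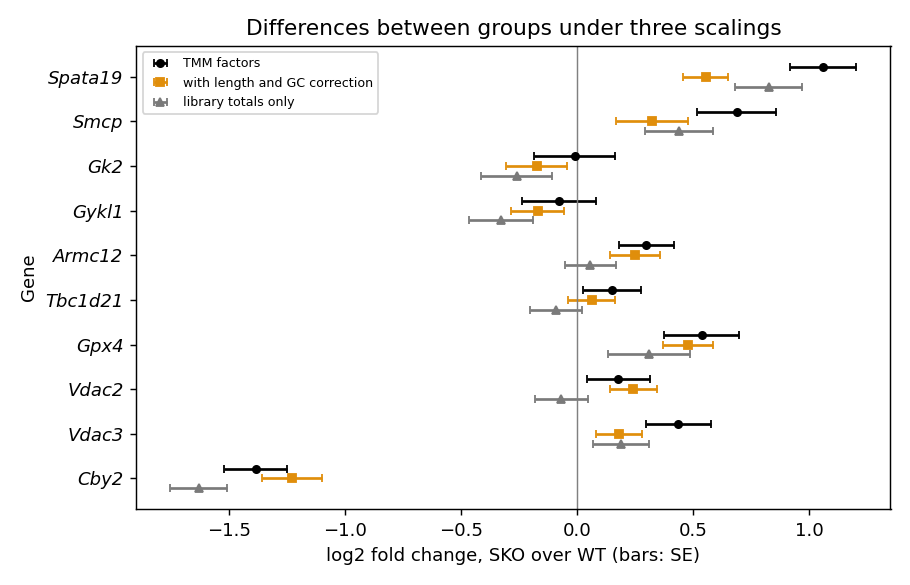
Log2 fold change, SKO over WT, of each sheath gene with its SE (edgeR), with TMM factors, with a length and GC correction, and with library totals only. Spata19 and Cby2 keep their direction and stay past the threshold under all 3, whereas Tbc1d21 and Vdac2 cross 0 under library totals.

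Of 26 sheath assembly partners 25 were tested, with 6 higher, 6 lower and a median log2 fold change of 0.05, shares close to the 21.2% higher and 20.9% lower over all genes tested. Rab10, a vesicle GTPase gene, rose to 83.0 ± 4.7 CPM in SKO, against 44.3 ± 2.0 CPM in WT (log2 fold change 0.91 ± 0.13, edgeR adjusted p = 0.000553). Fsip2, a gene of a very large fibrous sheath protein, had 474.3, 525.1 and 628.3 CPM in SKO and 279.0, 321.5 and 265.6 CPM in WT. Phb, a prohibitin gene of the inner mitochondrial membrane, rose by 0.85 ± 0.14. Pla2g6, a phospholipase A2 gene needed for sperm motility, fell to 72.0 ± 18.03 CPM in SKO, against 168.9 ± 29.6 CPM in WT (-1.23 ± 0.20, edgeR adjusted p = 0.0011; -0.73 with the length and GC correction). Pld6, the mitochondrial phospholipase D gene, fell by 0.99 ± 0.18 and Septin4, a gene of the annulus at the end of the midpiece, fell by 0.79 ± 0.16. Immt, the gene of the MICOS subunit that binds ARMC12, had 236.4 to 342.1 CPM in SKO and 258.3 to 319.9 CPM in WT, and did not pass (edgeR adjusted p = 0.823).

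The counts of the next lists stand beside the same shares over all genes. In the mitochondrial fusion and fission list 16 of 17 were tested, with 4 higher, 3 lower and a median of 0.09. The number higher was 2 under library totals and without any 1 of SKO replicates 1 and 2 and the WT replicates. Fis1, which encodes an outer membrane protein of fission, rose to 91.1 ± 19.2 CPM in SKO, against 51.6 ± 5.5 CPM in WT, and X-linked Fundc2 rose by 2.78 ± 0.45 at levels under 2 CPM. Mfn1, a mitofusin gene, fell to 21.7 ± 2.7 CPM in SKO, against 43.3 ± 5.5 CPM in WT (-0.99 ± 0.16, edgeR adjusted p = 0.00116). Msto1, which promotes fusion, fell by 1.04 ± 0.21 and Mief1, a receptor gene for the fission GTPase, fell by 0.95 ± 0.20. The list of paralogs of the members held 24 names, of which Armc4 and Odad2 are names of the same gene. In it 17 genes were tested, with 4 higher, 3 lower and a median of 0.05. Without SKO replicate 2, WT replicate 1 or WT replicate 2 the number lower was 1, and under library totals it was 6. Besides Cby1, Gpx1, a cytosolic glutathione peroxidase gene, rose by 1.61 ± 0.26, to 6.98 ± 1.54 CPM in SKO against 2.28 ± 0.55 CPM in WT. Per kilobase, Gpx4 made up 97.2% to 97.9% of 5 glutathione peroxidase genes in SKO and 97.2% to 97.6% in WT.

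Selenoprotein genes, to which Gpx4 belongs, were split. Of 23 others 18 were tested, with 5 higher, 6 lower and a median of 0.11; with the filter of 5 CPM in 3 libraries 2 were higher. Selenos, a gene of an endoplasmic reticulum selenoprotein, rose to 593.5 ± 32.0 CPM in SKO, against 350.3 ± 24.5 CPM in WT (0.76 ± 0.12, edgeR adjusted p = 0.000938; 0.50 with the correction for length and GC), and Selenoh rose by 1.88 ± 0.26 at levels under 10 CPM. Txnrd3, the thioredoxin-glutathione reductase gene of the testis, had 202.9, 162.2 and 203.3 CPM in SKO and 286.4, 373.6 and 273.5 CPM in WT, without overlap (-0.72 ± 0.16, edgeR adjusted p = 0.00587; -0.39 with that correction). Selenoi, a phospholipid synthesis gene, fell by 1.52 ± 0.18. Selenoo fell by 1.87 ± 0.28, to 0.90 ± 0.08 CPM in SKO against 3.29 ± 0.70 CPM in WT. Of 10 genes for making selenoproteins 9 were tested, with 0 higher, 3 lower and a median of -0.17. DESeq2 also called 0 higher, limma-voom called 0, and 0 of the 9 were higher at an unadjusted edgeR p under 0.05. Scly, selenocysteine lyase, fell by 1.37 ± 0.31, to 1.56 ± 0.56 CPM in SKO against 4.03 ± 0.90 CPM in WT. Eefsec, the elongation factor that delivers selenocysteine, fell by 0.68 ± 0.15, a call that the length and GC correction ended (-0.23, edgeR adjusted p = 0.189). That correction changed the counts of this list to 2 higher and 1 lower.

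The glycerol and glycerol 3-phosphate list, for the substrate and product of the glycerol kinases, had 13 of 16 tested, with 1 higher, 6 lower and a median of -0.52. Pgp, a glycerol 3-phosphate phosphatase gene, had 1970, 1896 and 2587 CPM in SKO and 1255, 1165 and 1323 CPM in WT (0.79 ± 0.15, edgeR adjusted p = 0.00232; 1.21 with the length and GC correction). Mgll, monoacylglycerol lipase, fell by 2.20 ± 0.26, to 1.91 ± 0.58 CPM in SKO against 8.76 ± 0.10 CPM in WT. Gpat2, a mitochondrial acyltransferase gene, fell by 1.59 ± 0.29, to 1.89 ± 0.38 CPM in SKO against 5.71 ± 1.79 CPM in WT. Pnpla2, adipose triglyceride lipase, fell to 165.5 ± 51.6 CPM in SKO, against 298.1 ± 24.6 CPM in WT (edgeR adjusted p = 0.00815). With the length and GC correction the Pnpla2 call ended (-0.40, edgeR adjusted p = 0.112) and the list had 3 lower in place of 6, as it also did without WT replicate 2.

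Markers of spermatid steps were read against the same 21.2% higher and 20.9% lower over all genes tested. In the early round spermatid list, 8 of 16 genes passed the test upward and 1 downward; their median was 0.38, with summed levels of 9842 to 11120 CPM in SKO and 7087 to 7466 CPM in WT. Spaca1, an acrosome gene, rose to 1507 ± 112 CPM in SKO, against 792.4 ± 66.4 CPM in WT. In the elongating spermatid list it was 10 of 18 upward and 1 downward; their median was 0.63, with sums of 12310 to 12900 CPM in SKO and 8154 to 8520 CPM in WT. Gstm5, a sperm glutathione transferase gene, rose to 5067 ± 428 CPM in SKO, against 2478 ± 124 CPM in WT, and Fscb, a fibrous sheath gene, fell by 0.78 ± 0.23 (edgeR adjusted p = 0.0209, and 0.0761 and 0.0604 without WT replicate 2 or 3). Without WT replicate 1, 2 or 3 the number lower in the early list was 0, as it was in the elongating list without WT replicate 2 or 3, and under library totals 6 elongating markers were higher. With the length and GC correction 9 early markers were higher and 1 lower, and 8 elongating markers were higher and 2 lower. In the elongating list that correction ended the calls of Prm1 (0.19), Prm3 (0.24), Tnp2 (0.23) and Cabs1 (0.24). It called Odf2 (0.33) and Tssk6 (0.49) higher and Tnp1 (-0.45) lower. The part of a shift in step in the values of the sheath genes was not tested.

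**Figure D5:**
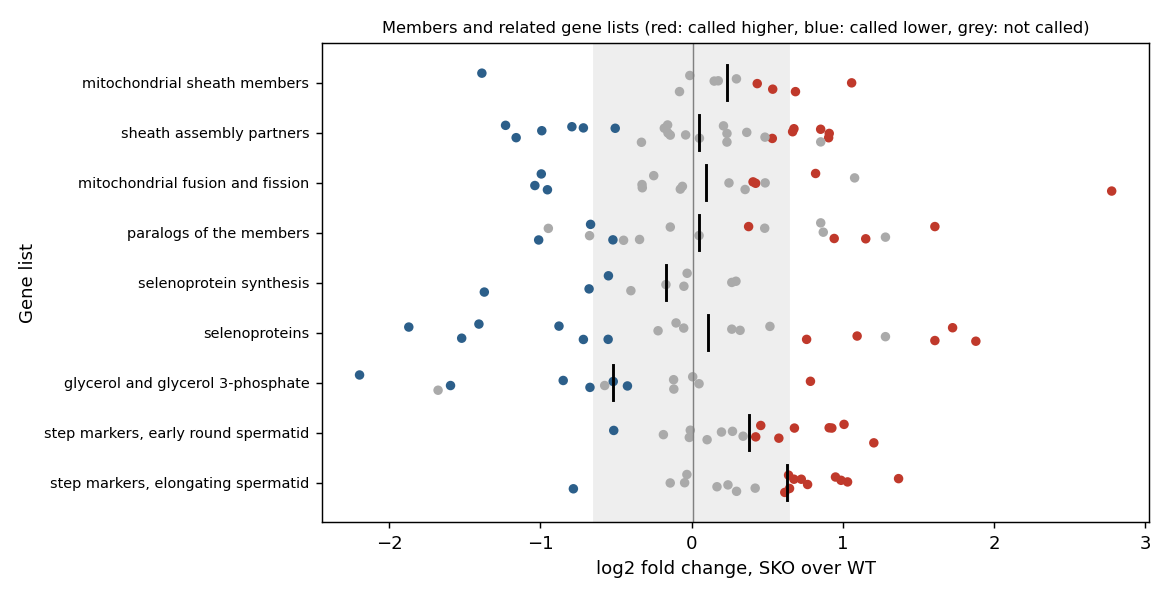
Log2 fold change, SKO over WT, of the 10 sheath genes and of each tested gene of the related lists, with called genes coloured and each list's median as a black bar. The grey band spans the middle 50% of all tested genes (-0.64 to 0.64), and the medians run from -0.52 (glycerol) to 0.63 (elongating spermatid markers), with the sheath genes at 0.24.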

How the data were processed

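Gene counts were deposited by the authors in a single table of 6 columns, 3 headed cKO (the samples labelled SKO) and 3 headed WT. The submitters' processing notes name GRCm38 and the tools featureCounts 1.5.0-p3, HISAT2 2.0.5 and Trim Galore 0.6.4. The sources used here give neither the strand setting nor the treatment of reads with several matches. Counts were filtered with filterByExpr (minimum count 10), scaled by TMM and tested with edgeR 4.0.16 (quasi-likelihood, SKO over WT, R 4.3.3), with Benjamini-Hochberg adjustment over all 19776 genes tested and a threshold of 0.05. CPM are computed here. Depth was 52055193 to 60970931 counts per library. Replicates of a group differed beyond counting noise (chi-square per degree of freedom 14.2 to 141.1). Ratios of 2 genes used counts plus 0.5 and an exact permutation test. Transcript lengths and GC content are those of the GENCODE M21 transcript with the longest coding sequence, with 97.7% of rows matched. Levels per kilobase depend on this choice of transcript, which has 995 bases for Gpx4. Similar transcripts came from blastn. The fits were tested on simulated data in which few genes changed, equally up and down, or a trend with length was planted. These settings do not test the scaling when many genes differ. Alternatives were DESeq2 1.42.0, scaling by its size factors, by upper quartiles or by library totals, other filters, limma-voom (limma 3.58.1), a threshold of 0.01, a replicate block, a per-library loess correction for length and GC content, each replicate left out and, added after seeing the data, near-identical copies counted with their gene. The members and gene lists were chosen with earlier results of these data known, and some lists share genes. Genes were named by a rule: the members, Eif5a, paralogs, and in each list up to 3 called higher and 3 lower with the lowest adjusted p, of which the text gives most; Immt and the cell type markers named were chosen after their values were seen.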

Additional observations from a re-analysis of the deposited data

How the results depend on the processing

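Spata19 and Cby2 kept their direction and their call under every alternative run; leaving out 1 library gave 0.94 to 1.14 for Spata19 and -1.48 to -1.31 for Cby2 (log2 fold changes throughout). With library totals only, which moved the median of all genes tested to -0.23, 2 members were called higher, the members' median was -0.00644, Tbc1d21 stood at -0.093 and Vdac2 at -0.069, and Gpx4 (0.308) and Vdac3 (0.189) were not called. With upper quartile factors Gk2 stood at 0.020 and Armc12 was called (0.332). With a filter of 5 CPM in 3 libraries Gk2 stood at 0.0114, Armc12 was called (0.324), and 2742 genes were lower, against 4127. At a threshold of 0.01, 5164 genes were called, 2611 higher and 2553 lower, with 2 members higher; Gpx4 (0.54) and Vdac3 (0.43) were not called. The length and GC correction left 2 members higher, without Smcp (0.320) and Vdac3 (0.179), and called 5 fusion and fission genes lower in place of 3. Leaving out 1 library gave 1 to 6 members higher, a members' median of 0.140 to 0.278, 0.519 to 0.818 for Smcp, -0.172 to 0.142 for Gk2, -0.239 to 0.0475 for Gykl1, 0.212 to 0.328 for Armc12, 0.298 (without SKO replicate 3) to 0.619 for Gpx4, 0.0678 to 0.259 for Vdac2, 0.312 to 0.520 for Vdac3, and -0.060 to 0.521 for the Smcp over Gpx4 ratio. The cause of these changes was not tested. Gk, which was not called and stood at 0.05, turned to -0.197 with library totals, -0.0335 with limma-voom, -0.161 with the length and GC correction and -0.457 to 0.317 with 1 library left out (-0.457 without SKO replicate 2, -0.103 without WT replicate 2).

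Pairing by replicate number was not visible: deviations of same-numbered SKO and WT libraries correlated at -0.016, -0.040 and -0.063. Libraries of unlike number correlated at -0.026 to 0.064. With 3 libraries per group these values cannot settle whether the samples were paired. A replicate block gave 3552 genes higher and 3666 lower and left Vdac3 uncalled (0.424), with Gk at -0.0521, Cby3 called (0.89) and 2 fusion and fission genes higher in place of 4. With the replicate block and the length and GC correction together, 2 members were higher, Smcp stood at 0.296, Vdac3 at 0.175 and Gk at -0.243, Cby3 was called (0.73), and Txnrd3 was no longer called.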
